A study of Homo sapiens with 6 samples.

Results

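Small leucine-rich proteoglycans are secreted proteins whose curved repeats bind collagen fibrils, and most of them carry chondroitin, dermatan or keratan sulfate chains. They set the diameter and spacing of collagen fibrils and hold growth factors such as TGF-beta in the matrix. In tissue they are made mainly by fibroblasts and other mesenchymal cells. The family was followed here as 10 genes given by symbol, LUM, DCN, OGN, BGN, FMOD, ASPN, PRELP, OMD, PODN and KERA, all of which were found by Ensembl ID among the 58825 genes of the count table. They were chosen by symbol, at a time when their fold changes in this same comparison were known, so those fold changes are given as a description with standard errors (SE) and without a test.

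The RNA came from HGC-27, a human gastric cancer cell line, grown in RPMI-1640 medium with fetal bovine serum and sequenced in 6 libraries. The 3 libraries of the GC0643 overexpression group came from cells carrying an expression vector for GC0643, a gene predicted from a gastric cancer pan-genome, and the 3 libraries of the Vector control group from cells with the vector. Both lines were made by retroviral infection and puromycin selection of stable cells, and how many clones each holds is not given in the sources used here. The labels do not say that replicates are separate cultures, so every error and p-value measures only the spread between these libraries. GC0643 itself was not analysed here, and the group of each library therefore rests on its label.

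Total counts ranged from 20376722 to 21629573 in GC0643 overexpression and from 20489033 to 24069166 in Vector control. Of the 14 markers of gastric epithelium listed, 4 had enough counts to be tested, and the epithelial genes EPCAM and CDH1 had at most 9 counts in any library, KRT18 at most 3 and KRT19 at most 1. The 4 tested were KRT8 (83 to 159 counts), CLDN7 (159 to 369), MUC1 (189 to 335) and CLDN4 (39 to 65), and the list summed to 27.7 to 29.4 CPM in GC0643 overexpression and 28.6 to 38.7 CPM in Vector control. Of 12 fibroblast markers, 11 were tested, and the list summed to 4320 to 5100 CPM (counts relative to TMM-scaled library totals) in GC0643 overexpression and 4320 to 4980 CPM in Vector control. Collagen genes made up most of that sum, with COL3A1 at 2540 CPM in GC0643 overexpression and 2510 CPM in Vector control. Markers of endothelium and leukocytes summed to 2.5 to 2.85 CPM in GC0643 overexpression and 2.57 to 3.35 CPM in Vector control, with PECAM1 and CD3E at 0 counts in all libraries. In bulk RNA, fewer cells of a type and less RNA per cell cannot be told apart.

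The members lie in groups on the GRCh38 genome. On chromosome 12, KERA (91050491 to 91058024), LUM (91102629 to 91111494) and DCN (91140484 to 91183217) follow each other on the minus strand, with EPYC, another gene of the family, on the far side of KERA. On chromosome 9, OGN (92383268 to 92404696), OMD (92412380 to 92424471) and ASPN (92456205 to 92482506) lie on the minus strand inside the span of CENPP, a kinetochore gene of the plus strand. No exon base of these 3 genes is shared with CENPP. FMOD (203340628 to 203351758, minus strand) and PRELP (203475806 to 203491352, plus strand) are neighbours on chromosome 1, where PODN (53062052 to 53085501) lies apart. BGN is on chromosome X (153494980 to 153509546), and its start overlaps HAUS7 on the other strand without a shared exon base. Only PODN shares exon bases with other genes, 466 with an antisense long noncoding RNA and 280 with the pseudogene HIGD1AP11. Whether the counting used strand is not stated for these libraries.

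Promoters of 6 of the 10 members were found in the RefSeq table for GRCh38.p14, those of OGN, BGN, FMOD, ASPN, PRELP and PODN. The 250 bases before the start are shown for 3 of them that differed in level and in the direction of their fold change. Capitals mark a TATA box (TATAAA) or a GC box (GGGCGG) on either strand. The letters of the motifs cannot overlap each other, and of 35116 promoters of the same length listed there 10.7% hold the TATA box letters and 42.6% the GC box letters.
OGN, chr9:92404700-92404949, minus strand: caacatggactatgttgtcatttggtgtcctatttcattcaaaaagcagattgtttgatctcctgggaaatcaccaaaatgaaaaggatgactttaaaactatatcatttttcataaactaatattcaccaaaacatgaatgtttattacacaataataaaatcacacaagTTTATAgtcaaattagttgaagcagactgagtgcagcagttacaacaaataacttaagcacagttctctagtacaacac
BGN, chrX:153494730-153494979, plus strand: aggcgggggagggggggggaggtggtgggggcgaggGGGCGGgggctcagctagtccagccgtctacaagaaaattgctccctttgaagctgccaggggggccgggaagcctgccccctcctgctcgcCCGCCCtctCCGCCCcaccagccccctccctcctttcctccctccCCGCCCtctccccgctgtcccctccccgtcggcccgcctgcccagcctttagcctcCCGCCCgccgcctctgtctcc
FMOD, chr1:203351123-203351372, minus strand: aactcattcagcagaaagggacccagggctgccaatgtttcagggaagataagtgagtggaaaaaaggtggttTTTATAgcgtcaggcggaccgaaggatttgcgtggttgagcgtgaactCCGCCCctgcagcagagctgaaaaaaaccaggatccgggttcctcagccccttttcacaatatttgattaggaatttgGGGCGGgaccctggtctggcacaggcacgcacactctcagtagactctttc

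The OGN stretch has a GC content of 31.2%, no CpG and 1 match to the TATA box, the BGN stretch a GC content of 74.0%, 16 CpG and 5 matches to the GC box, and the FMOD stretch 51.6%, 9 CpG and matches to both motifs. Of the others, ASPN has a GC content of 32.4% and neither motif, PRELP 52.8% and neither motif, and PODN 72.4% and 2 matches to the GC box. In GENCODE no exon overlaps the windows shown, which fall in introns of CENPP for OGN, of HAUS7 for BGN and of a longer FMOD transcript for FMOD. The TATA box letters begin 79 bases before the start in OGN and 177 bases before it in FMOD, in both on the opposite strand. A match is one of letters and was not tested as a binding site.

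In level per length, BGN, which encodes biglycan, a chondroitin and dermatan sulfate proteoglycan, stood first. On the TPM scale (counts per base of merged exons, scaled to the same sum in each library) it had 489 ± 27.2 in GC0643 overexpression and 564 ± 75.2 in Vector control (SD, n = 3 each). LUM, which encodes lumican, a keratan sulfate proteoglycan of cornea and connective tissue, followed at 113 ± 6.1 TPM in GC0643 overexpression and 65.6 ± 22.8 TPM in Vector control. DCN, which encodes decorin, had 25.8 ± 1.49 TPM in GC0643 overexpression and 18.5 ± 4.82 TPM in Vector control. OGN, which encodes osteoglycin, had 8.53 ± 0.261 TPM in GC0643 overexpression and 5.32 ± 1.72 TPM in Vector control. FMOD, which encodes fibromodulin, a regulator of fibril assembly and cross-linking, had 2.72 ± 0.584 TPM in GC0643 overexpression and 2.65 ± 0.533 TPM in Vector control. Over all 6 libraries the ranges of these 5 genes did not overlap with the next in order. With merged exons as the length, the differences in the order BGN, LUM, DCN, OGN, FMOD were thus larger than the spread between libraries.

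Below them PRELP, ASPN, OMD, KERA and PODN all stood under 1 TPM, and each overlapped with the next in that order. Among 19869 protein-coding genes, BGN ranked 115 and LUM 992 by mean TPM, against 4093 for DCN, 8060 for OGN and 10752 for FMOD. The order of all 10 was the same with the length of the longest transcript, which for DCN is 6850 bases, against 12941 of merged exons. DCN then stood at 40.2 ± 2.26 TPM in GC0643 overexpression and 28.8 ± 7.35 TPM in Vector control (SD, n = 3 each). LUM stood nearer to it, at 93.5 ± 5.1 and 54 ± 18.5 TPM in these groups. At this length the mean of LUM in Vector control, less its SD, lay below the mean of DCN in GC0643 overexpression. The separation of LUM from DCN over the 6 libraries is therefore stated for merged exons only. Within the clusters the neighbours differed widely in counts. LUM and DCN summed to 14006 and 16859 counts over the 6 libraries, while KERA, next to LUM, had 10. OGN summed to 1637 counts, OMD to 51 and ASPN to 53.

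**Figure D1:**
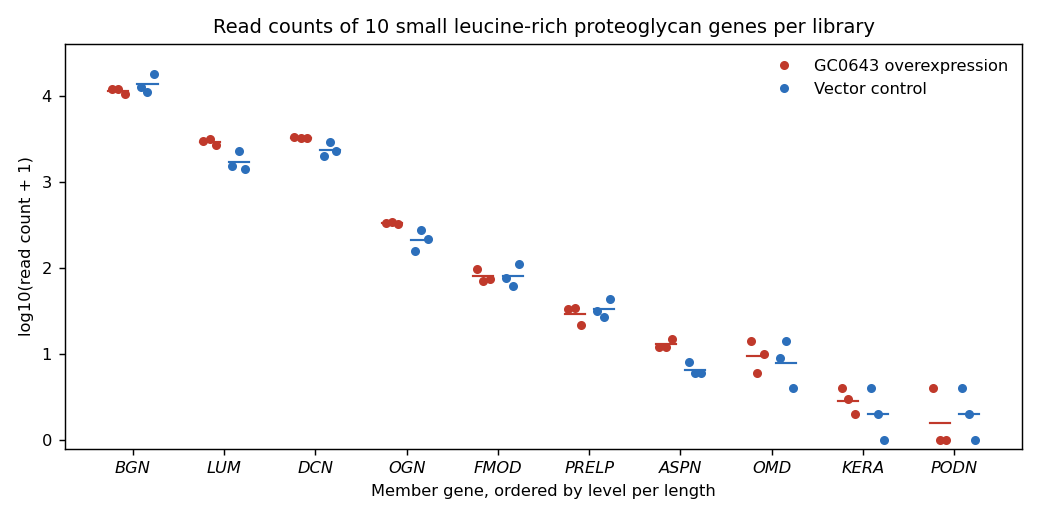
Read counts of the 10 members in each library as log10(count + 1) (vertical axis), with the genes ordered by level per length (horizontal axis). Red points are the 3 GC0643 overexpression libraries, blue points the 3 Vector control libraries, and lines are group means. BGN lies between 10439 and 17667 counts, and KERA and PODN at no more than 3.

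With edgeR's quasi-likelihood test, 0% of the 19528 genes tested were called at an adjusted p under 0.05, the members included. At an unadjusted p under 0.05 there were 3581 genes, and the likelihood ratio test, DESeq2 and limma voom passed 16, 1 and 0 at the adjusted p. With Vector control replicate 2 left out, 3813 of 19988 genes tested passed it, 3 members among them, and 0 genes after correction for GC content. The filter on low counts kept 7 of the 10 members, LUM, DCN, OGN, BGN, FMOD, ASPN and PRELP. ASPN passed it only through the GC0643 overexpression libraries, and a gene kept in that way has to differ between the groups. At an unadjusted p under 0.05, 4 members (LUM, DCN, OGN, ASPN) were on the higher side, as were 13.1% of all genes tested, and no member was on the lower side, where 5.26% of all genes were. Past the study's thresholds of a fold change over 1.5 and an unadjusted p under 0.05 were LUM, OGN and ASPN on the higher side, against 1.6% of all genes, and no member on the lower side, against 0.871%. These background shares were 312 genes higher and 170 lower, and became 251 and 234 with DESeq2's size factors. The same 4 members had CPM values without overlap between the groups on the higher side, as did 11.8% of all genes, and no member did so on the lower side, as did 10.5%. Since results of this comparison were known when the list was made, nothing is read from these counts.

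LUM had 139, 150 and 131 CPM in GC0643 overexpression replicates 1 to 3, against 75.7, 109 and 58.6 CPM in those of Vector control. All GC0643 overexpression libraries lay above all Vector control libraries, of which replicate 2 came nearest and replicate 3 was lowest. The log2 fold change of LUM was 0.78 (SE 0.18), a fold change of 1.72.

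DCN, whose product binds collagen I and TGF-beta and dampens receptor tyrosine kinases, had 154, 151 and 158 CPM in GC0643 overexpression, against 97.9, 141 and 95.1 CPM in Vector control. The groups did not overlap, and again Vector control replicate 2 lay closest to the GC0643 overexpression libraries. Its log2 fold change was 0.47 (SE 0.15), a fold change of 1.39. OGN, whose product is also known as mimecan, had 15.6, 16 and 15.9 CPM in GC0643 overexpression, against 7.68, 13.2 and 8.86 CPM in Vector control. The groups did not overlap, and the SD was 0.221 CPM in GC0643 overexpression and 2.9 CPM in Vector control, where replicate 2 was again highest. The log2 fold change of OGN was 0.68 (SE 0.19).

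BGN had 553, 559 and 515 CPM in GC0643 overexpression, against 622, 542 and 735 CPM in Vector control. The groups overlapped, with Vector control replicate 3 highest and GC0643 overexpression replicate 3 lowest, and the log2 fold change was −0.22 (SE 0.12). FMOD had 4.53, 3.26 and 3.6 CPM in GC0643 overexpression, against 3.69, 2.96 and 4.62 CPM in Vector control. The groups overlapped throughout, with a log2 fold change of 0.01 (SE 0.23). PRELP, which encodes a heparin-binding protein that anchors basement membranes to connective tissue, had 1.49, 1.56 and 1.04 CPM in GC0643 overexpression, against 1.53, 1.26 and 1.75 CPM in Vector control. It too overlapped between the groups, at a log2 fold change of −0.15 (SE 0.31).

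The other members were near the limit of the depth. ASPN, which encodes asporin, a family member that binds TGF-beta and lacks the usual chains, had 11, 11 and 14 counts in GC0643 overexpression, against 7, 5 and 5 counts in Vector control. The groups did not overlap, and the fitted log2 fold change was 1.13 (SE 0.48). Its sums of 36 counts in GC0643 overexpression and 17 in Vector control have exact Poisson 95% intervals of 25.2 to 49.8 and 9.9 to 27.2, which overlap. These intervals treat reads as independent molecules, which read counts without molecular identifiers are not, and they leave out the spread between libraries. OMD, which encodes osteomodulin of bone matrix, had 13, 5 and 9 counts in GC0643 overexpression, against 8, 13 and 3 counts in Vector control. KERA, which encodes keratocan of the cornea, had 3, 2 and 1 counts in GC0643 overexpression, against 3, 1 and 0 in Vector control. PODN, which encodes podocan, had 3, 0 and 0 counts in GC0643 overexpression, against 3, 1 and 0 in Vector control. For these 3 genes the groups overlapped, and a difference was not detectable at this depth.

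The median log2 fold change of the 7 members tested was 0.47 and that of all genes tested 0.02. It was 0.24 at a filter of CPM over 1, which drops ASPN, and it describes a list made with these fold changes known. By base composition of the canonical transcript, OGN, LUM and DCN, with a GC content of 32.2% to 38.2%, had log2 fold changes from 0.47 to 0.78, and FMOD, PRELP and BGN, with 53.3% to 60.9%, had values from −0.22 to 0.01. ASPN, which the filter kept only through 1 group, has a GC content of 34.5%. Over all genes with a GC content among those tested, fold change and GC content were inversely related (Spearman's rho = −0.67, a description, since genes share the libraries). The 2872 genes with a GC content of at most 40% had a median log2 fold change of 0.35, and the 6243 genes above 55% had −0.20. As log2 deviation from the mean over libraries, the median gene of the low class stood at 0.23, 0.09 and 0.23 for replicates 1 to 3 of GC0643 overexpression, against −0.26, 0.08 and −0.35 for those of Vector control. Vector control replicate 2 thus stood with the GC0643 overexpression libraries in this measure, as it came nearest to them for LUM, DCN and OGN. In log2 CPM over all genes tested, its Pearson's r was 0.9854, 0.99 and 0.9901 with GC0643 overexpression replicates 1 to 3. With Vector control replicates 1 and 3 it was 0.9872 and 0.9757.

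After a loess correction for GC content in each library, the log2 fold change was 0.46 (SE 0.13) for LUM, 0.32 (SE 0.14) for OGN and 0.17 (SE 0.09) for DCN. ASPN stood at 0.76 (SE 0.46), FMOD at 0.10 (SE 0.21), PRELP at −0.05 (SE 0.28) and BGN at −0.02 (SE 0.08). The median of the 7 members was then 0.17, and no member passed the study's thresholds. On this scale LUM lay at 0.18, 0.43 and 0.09 in GC0643 overexpression replicates 1 to 3, against −0.20, −0.01 and −0.49 in those of Vector control, still without overlap. OGN lay at 0.11, 0.27 and 0.12 in GC0643 overexpression, against −0.40, 0.02 and −0.11 in Vector control, also without overlap. The share of all genes without overlap was not counted on this scale, so nothing is read from its absence in LUM and OGN. DCN overlapped, since Vector control replicate 2 (0.05) lay above GC0643 overexpression replicate 1 (0.03). The part of RNA quality or library preparation in the GC trend was not tested.

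**Figure D2:**
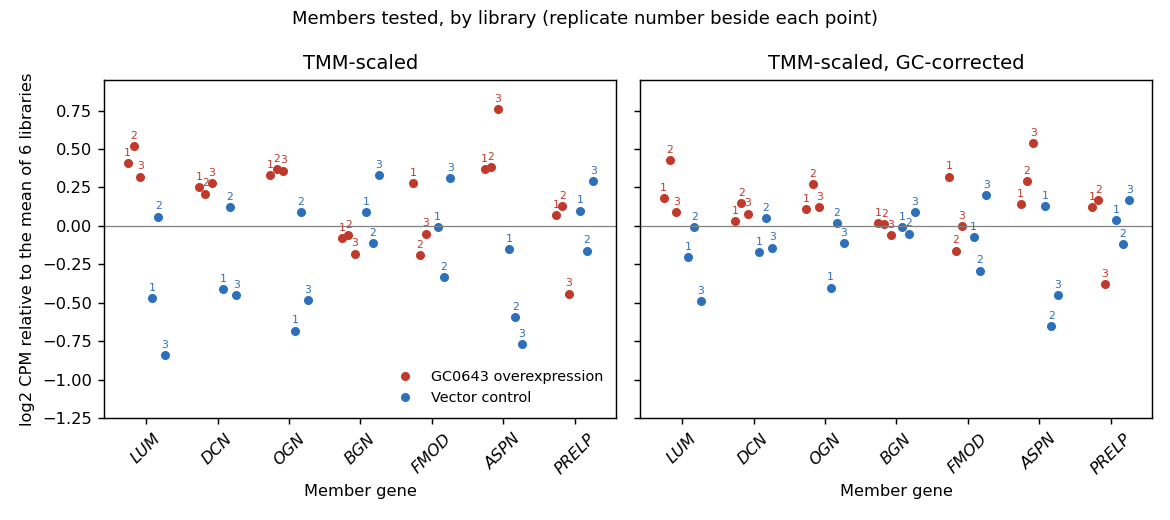
Log2 CPM of the 7 members tested relative to the mean of the 6 libraries (vertical axis), scaled by TMM (left) and corrected for GC content as well (right). Red points are GC0643 overexpression, blue points Vector control, and the number is the replicate. LUM and OGN are without overlap on both sides, which was not counted over all genes after correction. BGN lies within 0.09 of the mean after correction.

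**Figure D3:**
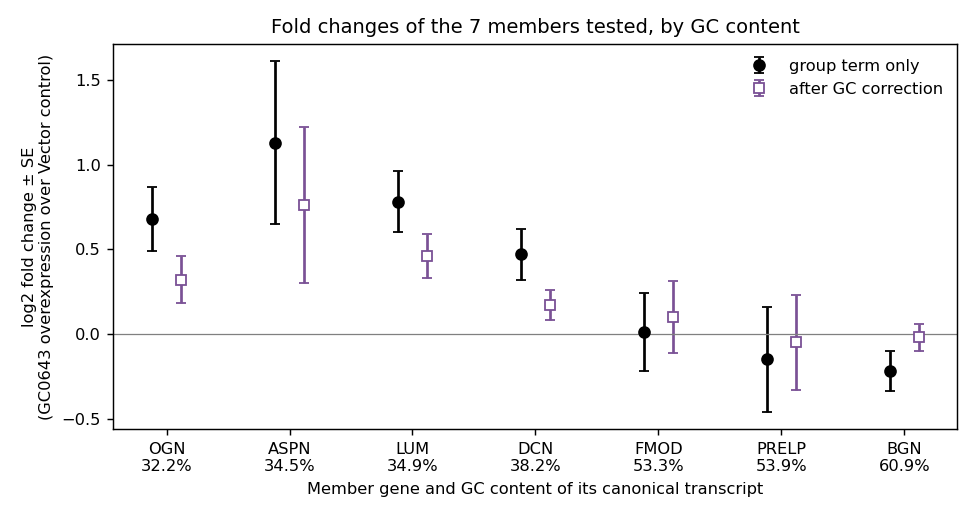
Log2 fold change of GC0643 overexpression over Vector control with its SE (vertical axis) for the 7 members tested, ordered by the GC content of the canonical transcript (horizontal axis). Filled circles have the group as only term and open squares follow GC correction, which moved LUM to 0.46, against 0.78 without it, and BGN to −0.02, against −0.22.

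Leaving out 1 library in turn, the log2 fold change ranged from 0.59 to 1.06 for LUM, from 0.52 to 0.94 for OGN and from 0.36 to 0.68 for DCN, each highest without Vector control replicate 2. That of ASPN ranged from 0.96 to 1.34 and that of BGN from −0.32 to −0.11. FMOD and PRELP took both signs, from −0.14 to 0.18 and from −0.27 to 0.01.

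Ratios of counts between members within a library need no scaling, but they are not corrected for GC content. LUM and DCN differ far more from BGN (60.9%) than from each other in that content, and after correction the log2 fold changes were 0.46 for LUM, 0.17 for DCN and −0.02 for BGN. The ratio of LUM to DCN, neighbours with a GC content of 34.9% and 38.2%, was 0.902, 0.996 and 0.829 in GC0643 overexpression replicates 1 to 3, against 0.774, 0.778 and 0.617 in those of Vector control. The groups did not overlap, at means of 0.909 ± 0.0841 in GC0643 overexpression and 0.723 ± 0.0918 in Vector control (SD, n = 3 each). The ratio of LUM to BGN was 0.251, 0.268 and 0.254 in GC0643 overexpression, against 0.122, 0.202 and 0.0798 in Vector control. The spread of this ratio was 0.0093 (SD) in GC0643 overexpression and 0.062 in Vector control. DCN to BGN averaged 0.285 ± 0.0191 in GC0643 overexpression and 0.182 ± 0.0685 in Vector control (SD, n = 3 each). OGN to DCN averaged 0.103 ± 0.00293 in GC0643 overexpression and 0.0885 ± 0.00868 in Vector control, again without overlap, whereas OGN to LUM overlapped. The ratios of LUM and DCN to BGN did not overlap between the groups either. How often ratios of other gene pairs do so was not counted, and the members were chosen with their fold changes known. Nothing is therefore read from the absence of overlap in these ratios.

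The share of the family in all counts differed little, from 0.0821% to 0.0893% in GC0643 overexpression and from 0.0802% to 0.0903% in Vector control. In these raw counts, which carry the GC trend, BGN took 62.4% to 63.6% of the family's counts in GC0643 overexpression, against 66.9% to 81.3% in Vector control. LUM took 15.8% to 17% in GC0643 overexpression, against 6.49% to 13.5% in Vector control.

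**Figure D4:**
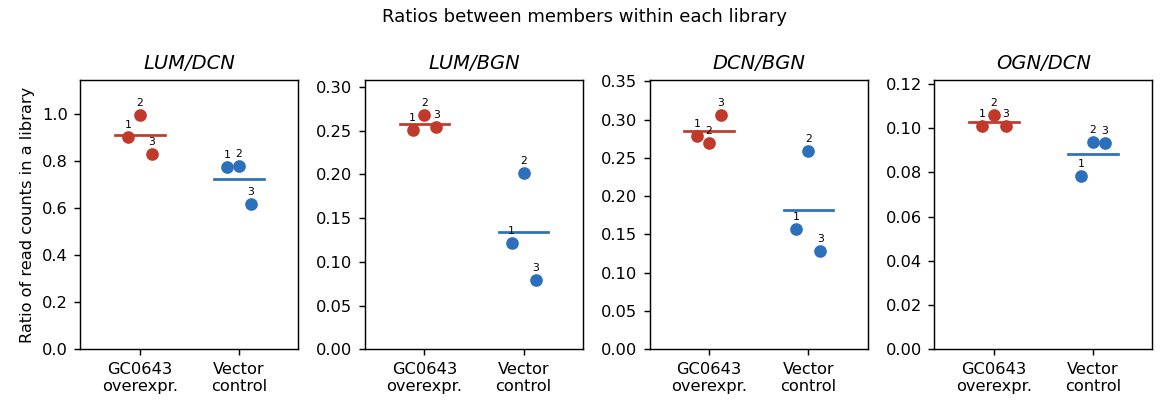
Ratio of read counts between members within each library (vertical axis) for 4 pairs, with GC0643 overexpression in red on the left of each panel and Vector control in blue on the right. Points are libraries with their replicate number and lines are group means. The ratio of LUM to BGN lies between 0.251 and 0.268 in GC0643 overexpression and between 0.0798 and 0.202 in Vector control.

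The genes whose pattern over the 6 libraries was most like that of BGN, the member with the highest level, were CLSTN1, MRC2 and NOP53. Their root mean square distance to BGN in log2 CPM relative to the mean was 0.0112, 0.016 and 0.0183, and their GC content was 56.6%, 63.3% and 64.2%, beside 60.9% for BGN. All 3 were highest in Vector control replicate 3, as BGN was, which follows from their selection by likeness to BGN over these libraries.

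Among 8 other genes of the family, 5 were tested, all with a negative log2 fold change and none at an unadjusted p under 0.05. TSKU, which encodes tsukushi, an inhibitor of BMP and Wnt signals, was the most abundant in CPM, at 48.6 ± 2.28 CPM in GC0643 overexpression and 55.7 ± 7.59 CPM in Vector control (SD, n = 3 each). In the edgeR fit it had a log2 fold change of −0.20 (SE 0.13) at an adjusted p of 0.40. CHADL had −0.25, PODNL1 −0.40, ECM2, next to ASPN, −0.18 and CHAD −0.05. After GC correction TSKU stood at 0.00, CHADL at −0.04, PODNL1 at −0.18, ECM2 at −0.48 and CHAD, with its sign turned, at 0.13, and the median of the list was −0.04, against −0.20 without the correction. EPYC and OPTC were counted at under 1 CPM in both groups.

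Most enzymes listed for the chains of these proteins had enough counts to be tested, while CHSY3 and CHST2 had 0 counts in all libraries. Of 22 genes of chondroitin and dermatan sulfate synthesis, 18 were tested, and at an unadjusted p under 0.05 the higher side held 2 and the lower side 3, with none past the adjusted p (13.1% and 5.26% of all genes tested were on these sides). Their median log2 fold change was −0.17, and 0.02 after GC correction, when 1 was higher and none lower. Of 19528 genes tested, 1194 were then on either side at that unadjusted p. B3GAT3 and B4GALT7, glycosyltransferases that build the linker between protein and chain, had log2 fold changes of −0.36 (SE 0.13) and −0.35 (SE 0.14), both at an adjusted p of 0.26 in the edgeR fit. CHST15, which adds a further sulfate to chondroitin sulfate, had 0.30 (SE 0.13) at an edgeR adjusted p of 0.27. After GC correction these 3 genes stood at −0.16, −0.15 and 0.29.

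Of 9 genes of keratan sulfate synthesis, 5 were tested. At an unadjusted p under 0.05, 3 were on the higher side and none on the lower, beside 13.1% and 5.26% of all genes tested. None passed the adjusted p, and the median was 0.41. After GC correction the median was 0.16 and 2 were on the higher side, when 1194 of 19528 genes tested were on either side. The list was chosen with earlier results of these data known, so nothing is read from its counts. FUT8, which adds core fucose to N-glycans, had 23.5 ± 2.89 CPM in GC0643 overexpression and 16.6 ± 2.74 CPM in Vector control (SD, n = 3 each), a log2 fold change of 0.50 (SE 0.16). B4GALT4, a galactosyltransferase of these chains, had 0.56 (SE 0.19) and B3GNT2, which extends polylactosamine, 0.41 (SE 0.17). The edgeR adjusted p was 0.26 for all 3, and GC correction left fold changes of 0.30, 0.37 and 0.16.

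Of 21 collagens and cross-linking enzymes that meet the family on fibrils, 20 were tested. At an unadjusted p under 0.05, 4 were on the higher side and none on the lower, beside 13.1% and 5.26% of all genes tested. None passed the adjusted p, and the median was 0.02. After GC correction the median was 0.16 and 2 were on the higher side, when 1194 of 19528 genes tested were on either side. COL1A2, the second chain of collagen I, had 132 ± 25.5 CPM in GC0643 overexpression and 95.7 ± 11.1 CPM in Vector control (SD, n = 3 each), without overlap. Its log2 fold change was 0.46 (SE 0.15) at an edgeR adjusted p of 0.26, and 0.57 after GC correction, while COL1A1, the first chain, had −0.08 and COL3A1 0.02. After GC correction COL1A1 stood at 0.12, its sign turned, and COL3A1 at 0.08. PLOD2, a lysyl hydroxylase of collagen, had 0.55 and COL14A1, a collagen of fibril surfaces, 0.49. PLOD2 and COL14A1 then stood at 0.23 and 0.31.

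Of 22 ligands and receptors that family members bind, 16 were tested, 3 of them on the higher side and none on the lower at an unadjusted p under 0.05 and none at the adjusted p, beside 13.1% higher and 5.26% lower over all genes. These were ITGB1, an integrin chain, at a log2 fold change of 0.46, TGFBR1, a TGF-beta receptor, at 0.51 and FAS, a death receptor, at 0.45, each at an edgeR adjusted p of 0.26. Corrected for GC content they stood at 0.18, 0.21 and 0.13, and no gene of the list was then at an unadjusted p under 0.05. The median of the list was 0.06 with and without the correction. Of 12 genes listed for processing or cleaving the family, 9 were tested. At an unadjusted p under 0.05, ADAMTS1 (0.31) was on the higher side and none on the lower, beside 13.1% and 5.26% over all genes. BMP1, which removes the propeptide of biglycan, had −0.18 and TLL1, a related protease, 0.31. After GC correction ADAMTS1 stood at 0.25, TLL1 at 0.05 and BMP1, its sign turned, at 0.01. Of 21 other proteoglycans, 15 were tested. At that p, SDC2 (0.29) and SPOCK3 (0.57) were on the higher side and CSPG4 (−0.45) on the lower, beside the same shares over all genes. SDC2, SPOCK3 and CSPG4 stood at 0.04, 0.21 and −0.24 after GC correction, when no gene of the list was on either side. No gene of these 2 lists passed the adjusted p, and their medians were −0.15 and −0.09, against 0.01 and 0.04 after GC correction.

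Among the neighbours of the members, CENPP, which spans OGN, OMD and ASPN, had a log2 fold change of 0.13 (SE 0.13) and HAUS7, which overlaps the start of BGN, −0.20 (SE 0.13). NOL8, the gene before CENPP on chromosome 9, had 0.40, and SCP2, the gene before PODN, 0.59, both at an edgeR adjusted p of 0.26, and after GC correction 0.13 and 0.33. BTG1, next to DCN, had −0.06 (−0.42 after GC correction), BTG2, next to FMOD, −0.01, and TREX2 and ATP2B3, on either side of BGN, −0.18 and −0.05. After GC correction HAUS7 stood at −0.03, TREX2 at 0.03 and ATP2B3 at 0.10. The spans of TREX2 and HAUS7 overlap on the same strand, so the split of reads between these 2 genes is uncertain. SLC1A7, the gene after PODN, had no counts. Of the 11 fibroblast markers tested, 5 had a positive and 6 a negative value, with a median of −0.08. Those of lowest p were COL1A2, PDGFRA (0.53) and FAP (0.70), the last 2 at 0.30 and 0.41 after GC correction, while PDGFRB had −0.36, TAGLN −0.38, PDPN −0.33, ACTA2 −0.17 and THY1 −0.16. Of gastric epithelium, CLDN7 had −0.44, MUC1 −0.27 and CLDN4 0.18, and after GC correction −0.30, −0.09 and 0.38. CD68 had −0.19. None of these passed the adjusted p.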

How the data were processed

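The values are raw counts per Ensembl gene, which the authors deposited for 6 libraries made with the NEBNext Ultra kit. The labels name Trimmomatic 0.32 for trimming, HISAT2 2.1.0 for alignment (build GRCh38) and featureCounts 2.0.0 for counting, whose options are not given for these libraries in the sources used here. GENCODE version 44 gave symbols, positions, exon length and GC content for 58472 of 58825 genes. The members and lists were chosen with earlier results of these data known.

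The filter was filterByExpr (minimum count 10), the scaling TMM and the test the quasi-likelihood test of edgeR 4.0.16 with group as the only term (R 4.3.3), with Benjamini-Hochberg adjustment across all 19528 genes kept. Alternatives used limma 3.58.1, DESeq2 1.42.0, other scalings and filters, a replicate block, a loess correction for GC content (span 0.3, prior count 1) and each library left out. Figures were drawn with matplotlib 3.10.9. The code was tested on simulated counts.

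The text names the members, in each list the 3 genes of lowest p, other family genes with at least 10 counts, coding neighbours of members and the 3 genes most like the member with the highest level. COL1A1, COL3A1, EPCAM, CDH1, KRT8, KRT18, KRT19, PECAM1, CD3E, PDGFRB, TAGLN, PDPN, ACTA2, THY1, CHSY3 and CHST2 were named after their values were seen.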

Additional observations from a re-analysis of the deposited data

How the results depend on the processing

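No gene passed the adjusted p by edgeR's quasi-likelihood test, and none did with limma voom, library size alone, CPM over 1 in at least 3 libraries or GC correction. There were 1 with DESeq2, 1 with DESeq2's size factors, 16 with the likelihood ratio test and 224 with no filter on low counts. Leaving out 1 library gave 0 to 3813 such genes. The count was 3813 with Vector control replicate 2 left out (0 after GC correction), 29 with replicate 3 and 1 with replicate 1 of that group left out, and 12 with GC0643 overexpression replicate 3 left out. Of the members, 3 were among the 3813, 1 among the 29, 1 among the 16 and 2 among the 224. The genes tested in these fits were 19988, 19847, 19528 and 36223. Since the list was made with results of this comparison known, nothing is read from these member counts. Genes higher past the study's thresholds, 312 in number, were 196 with DESeq2, 529 with no filter and 124 with GC correction, and 225 to 1743 leaving out 1 library, with 503 without GC0643 overexpression replicate 2. Genes lower, 170 in number, were 409 with no filter and 124 to 401 leaving out 1 library (284 without GC0643 overexpression replicate 1). This count was 362 without Vector control replicate 2 with GC correction. The median of the members, 0.47, was 0.24 at CPM over 1, where ASPN drops out, 0.17 with GC correction and 0.25 without Vector control replicate 2 with GC correction, and ranged from 0.36 to 0.68 leaving out 1 library. LUM, DCN, OGN and ASPN had a positive value in every alternative that gave one, and BGN a negative one. These alternatives reuse the same libraries, and the filter kept ASPN only through the GC0643 overexpression libraries. With the list made knowing these fold changes, nothing is read from the shared signs either. The value of BGN was smaller than its SE with GC correction, at −0.02 (SE 0.08). The same held without Vector control replicate 2 with GC correction, at −0.06 (SE 0.1). Beyond what the settings themselves remove, the cause was not tested. Depth limits ASPN, OMD, KERA and PODN.

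Same-numbered libraries of the groups did not deviate together from their group means (r = −0.21, −0.03 and −0.31 for replicates 1 to 3). With 3 libraries in a group, these values cannot show whether same-numbered libraries shared a culture or batch, which the labels do not give. With a replicate block 24 of 19528 genes tested passed the adjusted p, 1 of them a member, and with the replicate block and GC correction 2. That fit had 108 genes higher past the thresholds and a member median of 0.17. No library correlated best with its own number.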
